A study of Homo sapiens with 6 samples.

Results

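Matrix metalloproteinases (MMP), the related ADAM and ADAMTS proteases, and the tissue inhibitors of metalloproteinases (TIMP) were described across 6 RNA-seq libraries of BHT101 cells. The 62 genes were chosen by name among the protein-coding genes of the deposited table, leaving out the ADAMTS-like genes, and were 62 of 32896 genes in all. They comprised 22 MMP, 4 TIMP, 18 ADAM and 18 ADAMTS names. One of the 22 MMP names, MMP24OS, belongs to a gene on the strand opposite MMP24 and not to a protease, so 61 of the 62 carried the name of a protease or inhibitor. A further 9 genes with such names (pseudogenes and long noncoding RNAs) were left out by their gene type. MMP16, MMP26, ADAM29, ADAM30 and ADAMTS20 were not analysed here.

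BHT101 cells are a human line established from an anaplastic carcinoma of the thyroid. The control group (n = 3) received a control plasmid and the SK4 group (n = 3) a plasmid for SK4, the calcium-activated potassium channel encoded by KCNN4. The cells of all 6 libraries had lipid transfection and were harvested after 48 h, so no untransfected cells were compared. The plasmid raises the channel RNA transiently in 1 cell line, and no label states that replicates were separate cultures. The p-values then measure only spread among these samples, which may be technical.

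MMPs are zinc-dependent enzymes that cut collagen, basement membrane and other matrix proteins. They are made as inactive precursors and are blocked by TIMPs, which bind the active site. ADAMs sit mostly in the cell membrane and release the outer parts of growth factors, cytokine receptors and adhesion proteins, a step called shedding. ADAMTS enzymes are secreted and act on proteoglycans, procollagens and other matrix proteins. In thyroid cancer these families are studied for their part in invasion.

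Values are FPKM, fragments per kilobase of a gene relative to all mapped fragments of the library, which allows levels to be compared between genes. The libraries held an estimated 29700000 to 38500000 fragments. KCNN4, the gene on the plasmid, was at 8.31, 8.26 and 8.52 FPKM in the control libraries and at 184.1, 147.7 and 169.2 FPKM with SK4, with all SK4 values above all control values (log2 fold change 4.23, limma adjusted p = 8.83e-07, exact two-sided permutation p = 0.1, the smallest that 3 against 3 allows). Epithelial markers were present, with KRT18 at 174 and KRT19 at 236 FPKM on average. The thyroid follicular markers were nearly absent: all 6 were under 1 FPKM, and TG and TSHR were at 0.0033 and 0.0017 FPKM. Of the fibroblast markers 2 of 7 were above 1 FPKM, LUM and PDGFRA, while COL1A1, COL1A2 and COL3A1 were under 0.1 FPKM. The summed fibroblast markers lay between 24.5 and 29.8 FPKM in the controls and between 25.2 and 34.3 FPKM with SK4, mostly LUM, and their part in the results was not tested. Of the leukocyte markers 2 of 6 were above 1 FPKM, CD14 and ITGAM, and PTPRC was at 0.0033 FPKM. None of the 5 endothelial markers reached 1 FPKM.

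Control replicate 3 and SK4 replicate 2 stood apart from the other 4 libraries. Across 11065 tested genes, the log2 deviation of a library from its group mean had a Spearman correlation with the GC content of the transcript of 0.627 in control replicate 3 and 0.633 in SK4 replicate 2. In the other libraries it lay between -0.548 and -0.386. Deviations cancel out within a group, so these negative values follow in part from the positive ones. The counts of called and of positive genes, and the medians, were therefore also made without both libraries. Control replicate 3 was also the shallowest library, with an estimated 29700000 fragments against 35900000 to 38500000 in the others. One of its labels reads BHT102, its others BHT101. The part of depth or label in its values was not tested.

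In bulk libraries such as these, fewer cells with a transcript and less of it per cell cannot be told apart. Few of the 62 genes were expressed at an appreciable level. The summed RNA of the inhibitors, nearly all of it TIMP1, far outweighed that of the MMPs. The test took genes that reached 1 FPKM in 3 or more of the 6 libraries, and 17 members did (27.4% of 62, against 54.3% of all protein-coding genes in the table). Another 12 had a mean of at least 0.1 FPKM, and the remaining 33 were below that. All 4 TIMP genes passed, with 6 of 22 MMP, 5 of 18 ADAM and 2 of 18 ADAMTS genes. Only 7 members exceeded a mean of 10 FPKM over the 6 libraries, namely TIMP1, ADAM15, ADAM8, MMP14, TIMP3, TIMP2 and MMP24OS. The mean of TIMP1 was 636 times that of MMP17, the lowest member tested.

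**Figure D1:**
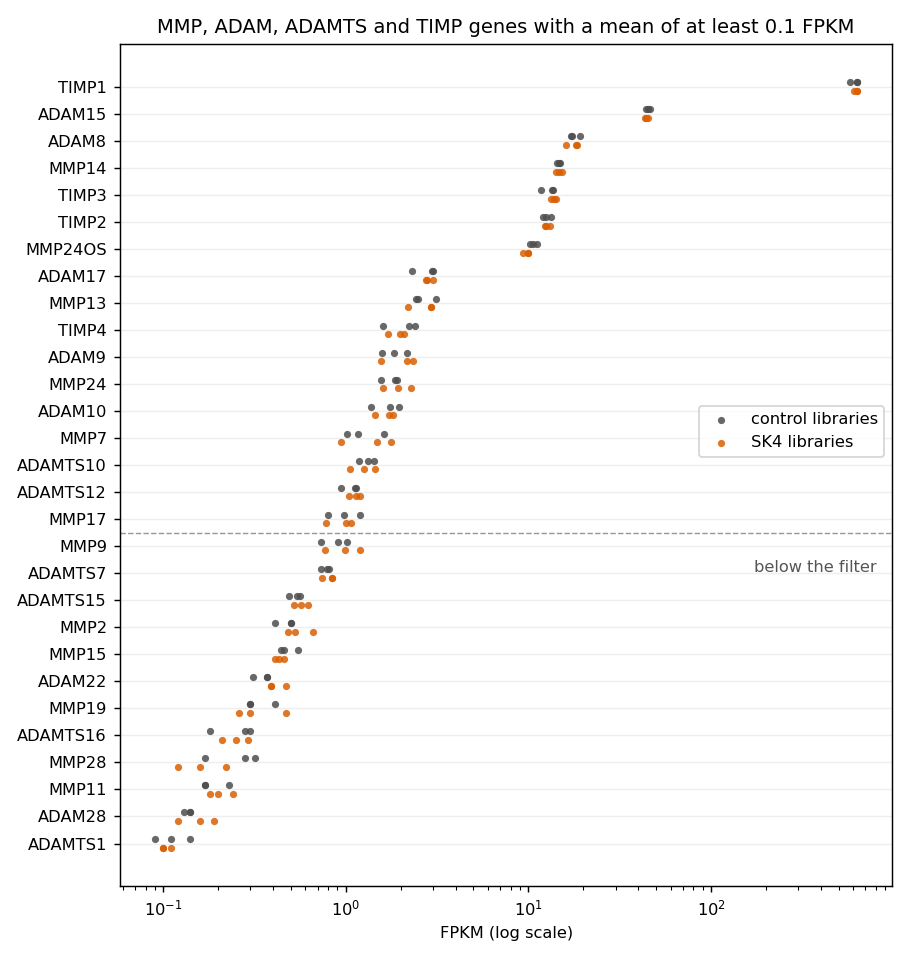
FPKM of the 29 members with a mean of at least 0.1 FPKM, on a log axis, with 1 point per library (control in grey, SK4 in orange). TIMP1 lies above 578 FPKM in every library, ADAM15 near 45, and the points of the groups lie over each other for nearly every gene.

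TIMP1 was the most abundant member in every library. It encodes a secreted inhibitor of most MMPs and lies on chromosome X at 47582313 to 47586789 (GRCh38, GENCODE 29, plus strand). Its level was 631.5, 578.2 and 632.4 FPKM in the control libraries and 630.9, 605.2 and 628.2 FPKM with SK4. The lowest control lay below and the highest control above every SK4 value, so the groups overlapped. The fitted log2 fold change was 0.018 (95% confidence interval -0.080 to 0.12; limma adjusted p = 0.99997).

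TIMP2, which besides inhibiting MMPs takes part in the activation of MMP2 by MMP14, was at 12.5, 13.2 and 12.03 FPKM in the controls and at 13.1, 12.4 and 12.3 FPKM with SK4. TIMP3, which is bound to the matrix and also inhibits ADAM17, was at 13.5, 13.6 and 11.7 FPKM in the controls and at 13.8, 14.2 and 13.3 FPKM with SK4. The control value of TIMP3 that lay apart was that of replicate 3, and without that library the log2 fold change was 0.021 in place of 0.091. TIMP4, the inhibitor with the most restricted tissue distribution, was at 1.59, 2.39 and 2.23 FPKM in the controls and at 2.09, 1.71 and 1.99 FPKM with SK4, where the controls spread more widely than the SK4 values.

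In GENCODE 29, 3 of the 4 TIMP genes lie inside a synapsin gene on the opposite strand, TIMP1 in SYN1, TIMP4 in SYN2 and TIMP3 in SYN3. The synapsin hosts had far lower levels than the inhibitors inside them. SYN1 was at 2.06 to 2.46 FPKM in the controls and 2.11 to 2.35 FPKM with SK4. SYN2 was at 0.04 FPKM and SYN3 at 0.015 FPKM on average. The libraries kept the strand, but no source used here states whether the authors counted by strand.

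Summed over each family, TIMP genes held 642 ± 29.6 FPKM in the controls and 650 ± 14.2 FPKM with SK4 (SD, n = 3 each). The 21 MMP protease genes together held 24.2 ± 0.835 and 24.6 ± 0.418 FPKM. The ratio of the sums was 26.5 ± 0.913 in the control and 26.4 ± 1.01 in the SK4 libraries, a difference smaller than either spread. TIMP1 made up 95.7% ± 0.447 of the TIMP sum in the control and 95.6% ± 0.136 in the SK4 libraries, so this ratio is in effect that of 1 gene. TIMP2, by contrast, was below MMP14 in each of the 6 libraries, at 0.808 to 0.901 of its level. These are RNA levels, and neither secreted protein nor enzyme activity was measured.

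Among the MMPs, MMP14 carried most of the RNA. MMP14 encodes MT1-MMP, a membrane-anchored enzyme that cuts collagen at the cell surface and activates MMP2, and lies on chromosome 14 at 22836557 to 22849027. It was at 14.9, 14.7 and 14.4 FPKM in the controls and at 14.7, 15.4 and 14.2 FPKM with SK4. The SK4 values reached above and below all 3 controls. Its log2 fold change of 0.0079 had a 95% confidence interval of -0.10 to 0.12. MMP14 was 60.6% ± 1.65 of the summed MMP proteases in the control and 59.8% ± 1.60 in the SK4 libraries.

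The other membrane-type enzymes were lower. MMP24, known from the nervous system, was at 1.85, 1.55 and 1.91 FPKM in the controls and at 1.60, 2.28 and 1.93 FPKM with SK4. Its log2 fold change of 0.096 was the most positive of the 17 tested members, and it was -0.0034 without SK4 replicate 2, the library with the highest value. MMP17, which is held in the membrane by a lipid anchor, was at 1.2, 0.80 and 0.98 FPKM in the controls and at 1.00, 1.07 and 0.78 FPKM with SK4. It passed the filter with exactly 3 libraries at 1 FPKM. MMP15 and MMP25, of the same class, were at 0.458 and 0.067 FPKM on average and were not tested.

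MMP24OS was the single tested member whose groups did not overlap. It was at 10.62, 10.23 and 11.08 FPKM in the controls and at 9.99, 9.94 and 9.37 FPKM with SK4, with every SK4 value below every control. The log2 fold change was -0.12 (SE 0.053, 95% confidence interval -0.24 to 0.0065), and it did not pass the test (limma unadjusted p = 0.0601, adjusted p = 0.99997). Among all tested genes 5.34% did not overlap in either direction and 1.81% had all SK4 values below all control values, so 1 of 17 (5.88%) is near the background. In GENCODE 29 MMP24OS spans chromosome 20 from 35201745 to 35278131 (minus strand), and the whole of MMP24 lies inside it on the plus strand. MMP24 itself had a log2 fold change of the opposite sign. Both also overlap AL121753.1, a far higher gene at 159 to 175 FPKM in the controls and 160 to 170 FPKM with SK4, which lies on the strand of MMP24OS. No source used here states how the authors divided reads between these genes, so the values of MMP24OS and MMP24 are uncertain.

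The secreted MMPs were low, among them the gelatinases, which cut denatured collagen and basement membrane collagen. MMP9 was at 0.73, 0.91 and 1.02 FPKM in the controls and at 0.77, 1.2 and 0.99 FPKM with SK4, just below the filter since only 2 libraries reached 1 FPKM. MMP2 was at 0.41, 0.50 and 0.50 FPKM in the controls and at 0.48, 0.66 and 0.53 FPKM with SK4. In each gene the ranges of the groups overlapped. With the filter lowered to a mean of 0.1 FPKM, their log2 fold changes were 0.096 (95% confidence interval -0.22 to 0.41) and 0.12 (-0.11 to 0.35; limma adjusted p = 1 for both). MMP9 exceeded MMP2 in all 6 libraries, by 1.60 to 2.04 times.

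MMP28, MMP11 and MMP19, at 0.212, 0.198 and 0.34 FPKM on average, were the other MMPs above 0.1 FPKM that were not tested. MMP28, also called epilysin, was at 0.17, 0.28 and 0.32 FPKM in the controls and at 0.22, 0.12 and 0.16 FPKM with SK4, with overlapping ranges. About 21.4 fragments lay behind each such value, if its length is the sum of the exons in GENCODE 29, which gives a counting error of 21.6%. MMP11 encodes stromelysin-3, a stromal enzyme of carcinomas, and MMP19 an enzyme of basement membrane turnover.

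A cluster of 9 MMP genes on chromosome 11, spanning 435227 bases from 102520508 to 102955734, had RNA mainly at its ends. In genome order the genes were MMP7, MMP20, MMP27, MMP8, MMP10, MMP1, MMP3, MMP12 and MMP13, all on the minus strand. The first, MMP7 (matrilysin), was at 1.62, 1.17 and 1.02 FPKM in the controls and at 1.49, 0.94 and 1.77 FPKM with SK4. The last, MMP13 (collagenase-3), was at 3.11, 2.48 and 2.41 FPKM in the controls and at 2.91, 2.20 and 2.94 FPKM with SK4. None of the 7 genes between them exceeded 0.15 FPKM in any library. In both end genes the lowest SK4 value was that of replicate 2 and the lowest control that of replicate 3.

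**Figure D2:**
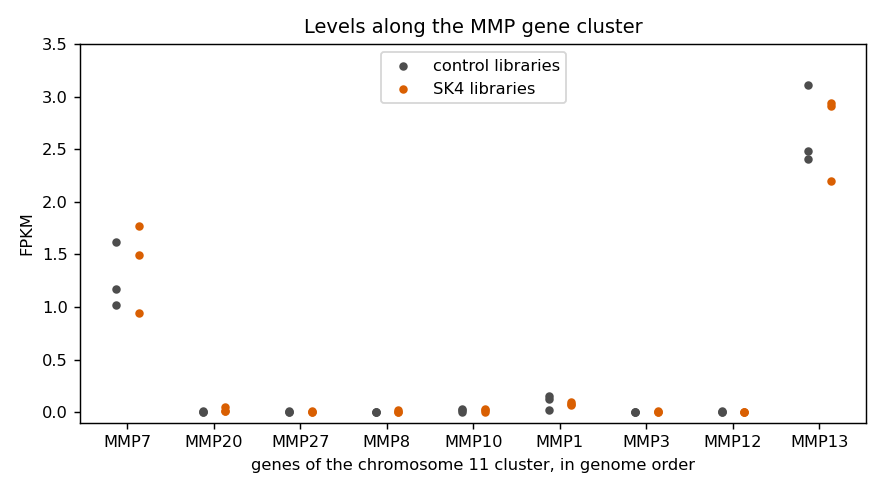
FPKM of the 9 MMP genes of the chromosome 11 cluster in genome order, with 1 point per library (control in grey, SK4 in orange). Points stand away from 0 at MMP7 and MMP13, the ends of the cluster, and are near 0 at the genes between them.

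MMP1, the interstitial collagenase, was at 0.13, 0.02 and 0.15 FPKM in the controls and at 0.08, 0.07 and 0.10 FPKM with SK4. These values rest on about 6.31 fragments per library. MMP8, MMP3 and MMP12 (neutrophil collagenase, stromelysin-1 and macrophage elastase) were above 0 in 1 of 6 libraries each. In a library that lists them at 0, a count of 0 allows (at 3 fragments) a level of up to 0.029 FPKM for MMP8, 0.049 for MMP3 and 0.054 for MMP12 in the shallowest library, for counting error only. MMP13 exceeded MMP1 in all 6 libraries, by 16.1 to 124 times. The ratio of 124 came from control replicate 2, where MMP1 was at 0.02 FPKM, close to the 0.014 FPKM of 1 fragment. The next highest ratio was 36.4, in SK4 replicate 1.

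Promoters of MMP genes in this cluster are known for a site of the AP-1 factors (dimers of FOS and JUN proteins). Of these promoters, 3 are printed to show where TGANTCA, with any base at N, occurs beside the measured levels. RefSeq windows of GRCh38.p14, from 250 bases before to 50 bases after the start of a gene, matched 36 of the 62 members (37 windows). They were searched for TGANTCA, a motif that reads the same on both strands. It was found in 4 of the 37 windows, those of MMP7, MMP10, MMP20 and ADAMTS12, and in 7.71% of all 35116 windows of this length. Of the cluster genes, MMP1, MMP3, MMP12 and MMP13 had no window and were not searched. The last 150 bases before the start follow, 5′ to 3′ on the minus strand, with the motif in capitals, for MMP7 (chr11:102530748-102530897), MMP10 (chr11:102780629-102780778) and MMP20 (chr11:102625333-102625482).
MMP7: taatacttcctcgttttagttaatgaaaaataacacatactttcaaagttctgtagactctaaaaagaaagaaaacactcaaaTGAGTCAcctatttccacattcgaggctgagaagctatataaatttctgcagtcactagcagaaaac
MMP10: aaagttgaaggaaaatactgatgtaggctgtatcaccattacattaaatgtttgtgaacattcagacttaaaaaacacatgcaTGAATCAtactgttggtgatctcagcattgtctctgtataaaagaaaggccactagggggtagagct
MMP20: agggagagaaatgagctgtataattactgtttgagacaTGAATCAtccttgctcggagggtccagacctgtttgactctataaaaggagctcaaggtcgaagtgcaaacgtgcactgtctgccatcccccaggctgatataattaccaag
The motif began 67 bases before the start in both MMP7 and MMP10, with different letters at its middle position. MMP7, with TGAGTCA, was at 1.34 FPKM on average. MMP10 (stromelysin-2), MMP20 (the enamel protease enamelysin) and ADAMTS12, all with TGAATCA, were at 0.0167, 0.0133 and 1.10 FPKM. Genes with TGAATCA in the window thus differed widely in level. A match describes the sequence and does not show that a factor binds.

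ADAM15 was the most abundant protease of the 62 genes. It encodes a membrane enzyme with an integrin-binding domain and lies on chromosome 1 at 155050566 to 155062775. It was at 45.2, 44.3 and 46.1 FPKM in the controls and at 44.3, 45.4 and 43.3 FPKM with SK4. The groups overlapped, and the log2 fold change was -0.028 (95% confidence interval -0.11 to 0.057). ADAM15 made up 64.6% ± 1.72 of the summed ADAM genes in the control and 64.1% ± 1.11 in the SK4 libraries.

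ADAM8, a membrane protease found on leukocytes and on several carcinomas, was next at 19.0, 17.1 and 17.3 FPKM in the controls and 18.2, 18.4 and 16.1 FPKM with SK4. Its SK4 values included the lowest of all 6 libraries and lay otherwise among the controls. The log2 fold change was -0.020 (95% confidence interval -0.18 to 0.14).

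The main sheddases were much lower in RNA than ADAM15. ADAM17, which releases TNF and the ligands of the EGF receptor, was at 2.97, 2.99 and 2.29 FPKM in the controls and at 2.99, 2.74 and 2.80 FPKM with SK4. ADAM10, which cuts Notch receptors and cadherins, was at 1.95, 1.75 and 1.38 FPKM in the controls and at 1.81, 1.44 and 1.73 FPKM with SK4. ADAM17 exceeded ADAM10 in all 6 libraries, by 1.52 to 1.90 times. Their log2 fold changes were 0.048 (95% confidence interval -0.19 to 0.29) and -0.017 (-0.31 to 0.27). ADAM17 was at -0.059 without control replicate 3, its lowest library.

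ADAM9, another membrane sheddase, was at 1.84, 2.16 and 1.58 FPKM in the controls and at 2.34, 1.56 and 2.17 FPKM with SK4. The lowest value of each group was again that of control replicate 3 or SK4 replicate 2. ADAM28 was at 0.147 FPKM and ADAM12, an enzyme of mesenchymal cells, at 0.09 FPKM on average. Of the ADAM genes without a catalytic motif, ADAM22, known as a receptor of the nervous system, was the only 1 of 7 above 0.1 FPKM. It was at 0.37, 0.37 and 0.31 FPKM in the controls and at 0.47, 0.39 and 0.39 FPKM with SK4. Those groups did not overlap, but the difference did not pass the test under the lower filter (log2 fold change 0.11, limma unadjusted p = 0.236, adjusted p = 1). The share of genes without overlap under that filter is not given here, so the separation has no background to be read against.

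The ADAMTS family was sparse, and its summed level was 4.27 ± 0.225 FPKM in the controls and 4.31 ± 0.292 FPKM with SK4. ADAMTS10, an enzyme linked to fibrillin microfibrils, was at 1.42, 1.18 and 1.32 FPKM in the controls and at 1.44, 1.26 and 1.06 FPKM with SK4. ADAMTS12, which cuts cartilage oligomeric matrix protein, was at 1.14, 1.12 and 0.94 FPKM in the controls and at 1.14, 1.04 and 1.2 FPKM with SK4. In both genes the groups overlapped. ADAMTS7, a protease of the same class as ADAMTS12, lay just below the filter at 0.73 to 0.81 FPKM in the controls and 0.74 to 0.84 FPKM with SK4. ADAMTS7 has near-identical pseudogene copies, and no source used here states how the authors treated their common reads.

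Of the proteoglycan-cutting ADAMTS enzymes and the procollagen N-proteinases none passed the filter. The proteoglycan-cutting ADAMTS15 was at 0.49 to 0.56 FPKM in the controls and 0.52 to 0.62 FPKM with SK4. ADAMTS1, of the same class, was at 0.108 FPKM on average, and ADAMTS16, of neither class, at 0.252 FPKM. The aggrecanases ADAMTS4 and ADAMTS5 were at 0.005 and 0.0017 FPKM, and ADAMTS2, which trims procollagen, at 0.035 FPKM. In all, 31 of the 62 members did not reach 0.1 FPKM in any library. They were below the filter and were not tested.

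No member was called higher or lower in the SK4 libraries (0 of 17 at a limma adjusted p below 0.05 over all 11139 tested genes). The background was 1 called gene, KCNN4 (0.00898% of tested genes). At an unadjusted p below 0.05 there were 0 of 17 members, against 1.65% of all tested genes. The median log2 fold change was 0.0056 over the 17 members and 0.011 over all tested genes. Of the 17, 9 had a positive and 8 a negative value, and the share of positive values over all tested genes was 57.9%. With 1 library left out, the number of positive members ranged from 4 without control replicate 3 to 12 without control replicate 1. The share of positive values over all tested genes was then 39.0% and 66.7%. Without both libraries that stand apart 7 members were positive, against 45.1% of all tested genes. By family, 4 of 6 MMP, 2 of 4 TIMP, 2 of 5 ADAM and 1 of 2 ADAMTS genes were positive.

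The intervals limit how far each tested member could differ on the fitted scale, which is log2 of FPKM plus a constant. There, all 17 had a 95% confidence interval with both ends less than 1.5-fold away from no change, as had 96.8% of all tested genes. The interval was narrowest for ADAM15, from 0.925-fold to 1.04-fold, and widest for MMP7, from 0.777-fold to 1.46-fold. For TIMP1 it ran from 0.946-fold to 1.08-fold and for MMP14 from 0.932-fold to 1.08-fold. The constant understates the change of low genes, so in FPKM itself the limits are wider for low members such as MMP7. With a constant of 0.1, the log2 fold change of MMP7 was 0.11 in place of 0.091. No interval at that constant is given here, so a 1.5-fold limit in FPKM was not shown for MMP7. A test that was not passed does not show that a level was the same.

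**Figure D3:**
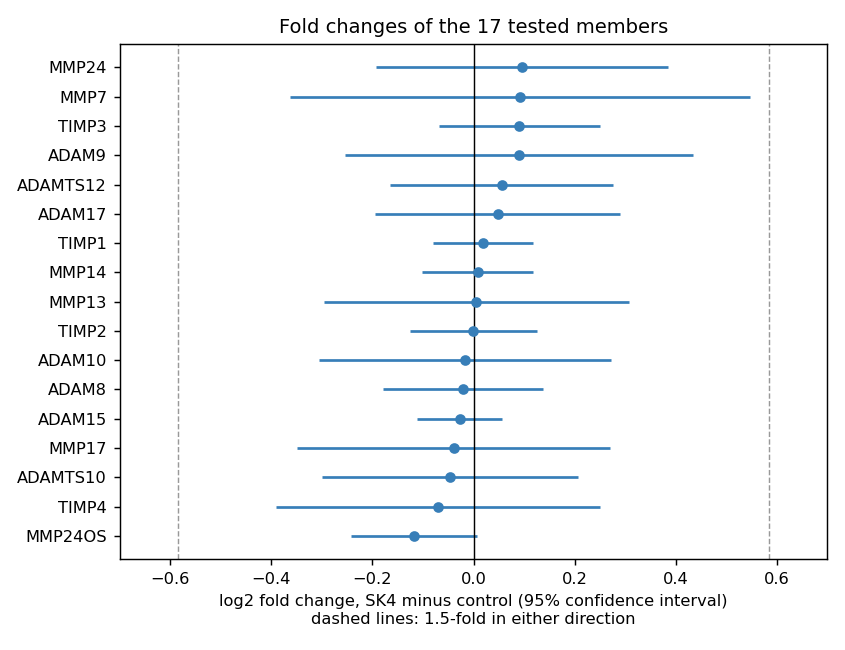
Log2 fold changes (SK4 minus control) of the 17 tested members with 95% confidence intervals from limma. On the fitted scale every interval includes 0 and lies inside the dashed lines at 1.5-fold, from MMP24OS at -0.12 to MMP24 at 0.096.

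Judged by ranges over all libraries, the order of the levels was firm only at the top. Between neighbours in the order of mean levels, the ranges over the 6 libraries were apart for 5 of 16 pairs. These separated TIMP1 from ADAM15, ADAM15 from ADAM8, ADAM8 from MMP14, TIMP2 from MMP24OS and MMP24OS from ADAM17. MMP14, TIMP3 and TIMP2 overlapped in turn, and from ADAM17 down to MMP17 each neighbouring pair overlapped. Compared within each library, however, MMP14 exceeded TIMP3 and MMP13 exceeded TIMP4 in all 6, although their ranges overlapped. Replicates spread by a coefficient of variation of 2.20% for ADAM15 to 27.8% for MMP7. In all 17 this was more than the counting error, which was 0.541% for TIMP1 and 9.43% for MMP7 if lengths are the summed exons of GENCODE 29. With these lengths, spread between libraries was larger than counting error for the tested members. Shorter lengths would raise the counting error. MMP24OS, for example, has 5511 nt of summed exons but a longest transcript of 1542 nt.

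For several members the lowest or highest value of each group lay in the same 2 libraries. ADAM10, ADAM17, MMP13, ADAM9, MMP7 and ADAMTS12 (6 of 17) were lowest in control replicate 3 among the controls and in SK4 replicate 2 among the SK4 libraries. The transcripts of these 6 had a GC content between 38.3% and 48.4%. MMP24 and ADAM15, with a GC content of 60.6% and 63.9%, were highest in both of those libraries. MMP7 deviated by -0.21 on the log2 scale in control replicate 3 and by -0.37 in SK4 replicate 2. Over the 17 members the Spearman correlation of the deviation with GC content was 0.534 in control replicate 3 and 0.654 in SK4 replicate 2. In the other 4 it lay between -0.559 and -0.069, where negative values again follow in part from the positive ones. MMP24OS, with the lowest GC content of the 17 (35.5%), was not lowest in either library. The members were picked out for this pattern after their values were seen, and the part of GC content in it was not tested. Over all 11139 tested genes the deviations of these 2 libraries had a Pearson correlation of 0.528. The share of all tested genes that were lowest or highest in both is not given here. The counts of members therefore have no background and are not read as a trait of the members.

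**Figure D4:**
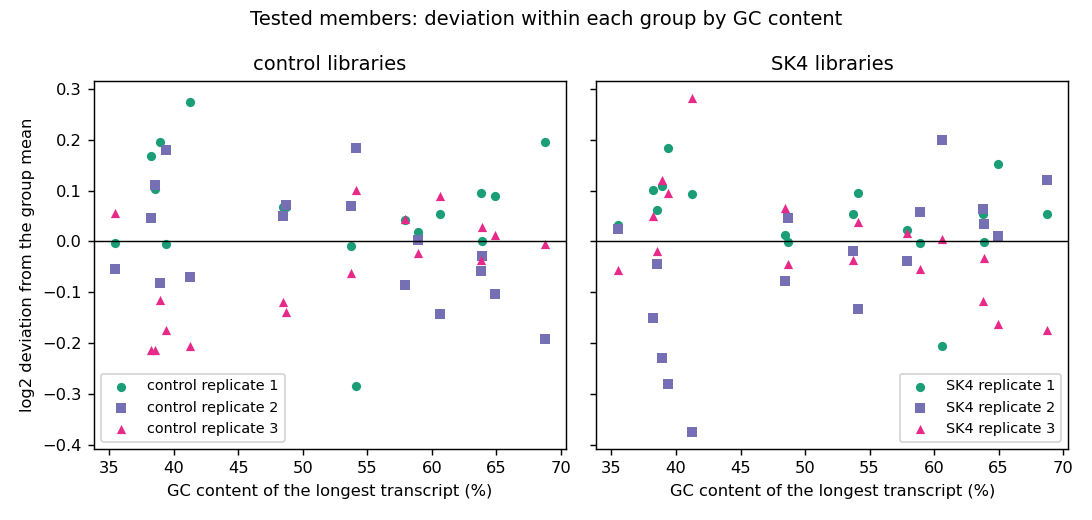
Log2 deviation of each tested member from its group mean against the GC content of its longest transcript, for the control libraries (left) and the SK4 libraries (right), with 1 symbol per library. In control replicate 3 and SK4 replicate 2 most members with a GC content near 40% lie below 0.

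Genes that act on these proteases or are cut by them were read from the same fit. Of 126 genes in 6 lists, 3 of them (FURIN, PCSK7 and CD44) in a pair of lists, 94 were tested and 0 called by limma, while at an unadjusted p below 0.05 there was 1 of 94, against 1.65% of all tested genes. That number was 0 without SK4 replicate 1, 2 without control replicate 1 or 2, and 4 without SK4 replicate 3, with library weights or without both libraries that stand apart. The share over all tested genes in these settings is not given here, so these counts have no background to be read against. The median log2 fold change of the 94 related genes was 0.028, and 65 of 94 were positive, against 57.9% of all tested genes. With 1 library left out, the number of positive related genes ranged from 48 without control replicate 3 to 77 without control replicate 1. The share of positive values over all tested genes was then 39.0% and 66.7%. With library weights 39 of the 94 were positive, against 41.1% of all tested genes. Without both libraries that stand apart 49 were positive, against 45.1%, with a median of 0.0034 against -0.0076 over all tested genes. In 6 of the 94 (6.38%) all SK4 values were above all control values, against 3.53% of all tested genes, and in 0 they were all below.

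Inhibitors and activators outside the TIMP family had 10 tested of 17, with a median of 0.036. BSG (basigin or EMMPRIN), which is known to induce MMPs in neighbouring cells, was at 304 ± 9.75 FPKM in the controls and 308.3 ± 9.45 FPKM with SK4 (SD, n = 3 each). CD44, a hyaluronan receptor that holds MMP9 and MMP14 at the cell surface, was at 44.9 ± 2.96 and 46.1 ± 0.685 FPKM. RECK, a membrane-anchored MMP inhibitor, was at 0.095 FPKM and was not tested.

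For the maturation and transport of ADAM10 and ADAM17, 13 of 14 genes were tested, with a median of 0.033. FURIN, the protease that removes the inhibitory part of ADAMs and membrane-type MMPs, was at 5.61, 5.46 and 5.85 FPKM in the controls and at 6.04, 6.07 and 5.78 FPKM with SK4. TSPAN15, a tetraspanin that guides ADAM10, was at 34.2, 34.0 and 34.2 FPKM in the controls and at 35.8, 35.0 and 35.0 FPKM with SK4. Its groups did not overlap, with a log2 fold change of 0.046 that did not pass the test (limma adjusted p = 0.99997). PDIA6, a disulfide isomerase, was at 133 ± 12.9 and 133 ± 7.66 FPKM, and TSPAN17 at 10.2 ± 0.324 and 10.4 ± 0.430 FPKM.

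Membrane proteins known to be shed had 36 tested of 40, with a median of 0.033 and 24 positive. ICAM1, an adhesion receptor for leukocytes, was at 105.2, 105.4 and 103.9 FPKM in the controls and at 112.0, 114.7 and 105.5 FPKM with SK4, without overlap and without passing the test (log2 fold change 0.078, limma adjusted p = 0.99997). TNF, the cytokine released by ADAM17, was at 1.16, 1.52 and 1.44 FPKM in the controls and at 1.52, 1.72 and 1.71 FPKM with SK4. SDC4, a heparan sulfate proteoglycan, was at 98.7 ± 7.09 and 105 ± 6.40 FPKM, and the TNF receptor TNFRSF1A at 85.9 ± 4.40 and 85.4 ± 2.91 FPKM. With 1 library left out, the median of the list was lowest without control replicate 3, at -0.010 with 15 of 36 positive. It was highest without control replicate 1, at 0.055 with 29 of 36 positive. Over all tested genes the median was then -0.021 with 39.0% positive, and 0.029 with 66.7% positive.

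Matrix substrates had 16 tested of 30, with a median of 0.0056. LAMB3, a laminin chain of the basement membrane, was at 30.9 ± 2.60 FPKM in the controls and at 33.3 ± 1.14 FPKM with SK4. AGRN (agrin, a basement membrane proteoglycan) was at 37.5 ± 1.04 and 37.6 ± 1.15 FPKM. FN1 (fibronectin) was at 5.29, 4.15 and 5.23 FPKM in the controls and at 4.01, 4.30 and 4.27 FPKM with SK4. Its log2 fold change of -0.19 was the lowest of the related genes and did not pass the test (limma adjusted p = 0.99997). The fibrillar collagens COL1A1, COL1A2 and COL3A1, the substrates of the collagenases, were at 0.055, 0.013 and 0.023 FPKM.

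Of the ADAMTS-like and related genes 3 of 8 were tested, all with overlapping groups. PAPLN (papilin) was at 3.75 ± 0.128 and 3.93 ± 0.0721 FPKM, ADAMTSL5 at 1.38 ± 0.157 and 1.42 ± 0.132 FPKM, and ADAMTSL4 at 1.22 ± 0.319 and 1.16 ± 0.0551 FPKM.

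Transcription factors known to act at protease promoters had 19 tested of 20, with a median of 0.043 and 13 positive. JUNB, an AP-1 subunit, was at 119.6, 116.9 and 120.9 FPKM in the controls and at 127.8, 126.4 and 122.9 FPKM with SK4. It was the 1 related gene with an unadjusted p below 0.05 (log2 fold change 0.077, limma unadjusted p = 0.0426, adjusted p = 0.99997). JUND, another AP-1 subunit, was at 70.7 ± 3.47 and 76.4 ± 3.03 FPKM, and CEBPB at 92.6 ± 2.21 and 98.4 ± 4.50 FPKM. With 1 library left out, the median of this list ranged from 0.013 without SK4 replicate 1 to 0.070 without SK4 replicate 2. The medians of all tested genes were then -0.0049 and 0.024. Of the MMP genes printed above with a match to TGANTCA, MMP7 had a log2 fold change of 0.091 that did not pass the test. MMP10 did not exceed 0.03 FPKM in any library.

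**Figure D5:**
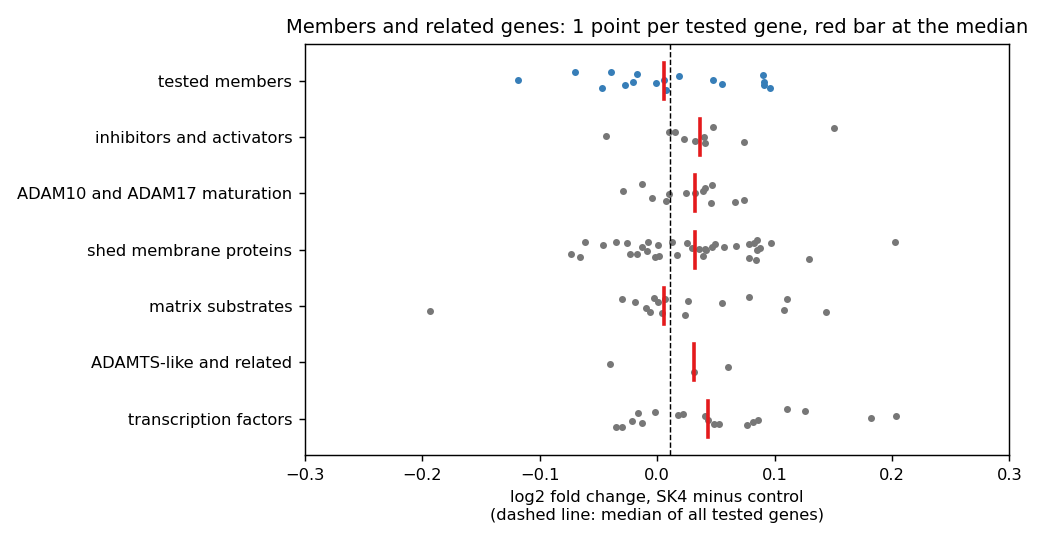
Log2 fold changes (SK4 minus control) of the tested members and of the tested genes of the 6 related lists, with 1 point per gene and a red bar at each median. The medians lie between 0.0056 and 0.043, near the median of all tested genes at 0.011 (dashed line).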

How the data were processed

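Polyadenylated RNA of BHT101 cells was sequenced as 150 nt read pairs from strand-marked libraries, per the labels' protocols. Samples were grouped by title. One label of control replicate 3 reads BHT102, its others BHT101, and it was kept. The authors deposited 1 table of FPKM values rounded to 2 decimals. Per the submitters' processing notes HISAT2 and GRCh38 were used, but the counting tool and gene annotation are not given in the sources used here.

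Values were taken as log2(FPKM + 0.5), which understates the change of low genes. Genes with at least 1 FPKM in 3 of 6 libraries (11139) were fitted in limma 3.58.1 under R 4.3.3 (group as the only term, trended and robust prior variance, Benjamini-Hochberg adjustment over all tested genes). The fit was tested on simulated data. FPKM is no count, so no count model was run. Depth was estimated from the steps of low values of single-exon genes shorter than 160 nt, where 99.4% to 99.5% of values worth up to 5 fragments were whole within 0.1. At 1 FPKM a gene of 1 kb then has a counting error of 16.1% to 18.3%, which covers counting error only. Coordinates, exon lengths and GC content came from GENCODE 29, whose release may differ from that of the authors. It matched 31726 of 32896 identifiers.

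Every tested member was named. Members below the filter were named where their mean reached 0.1 FPKM, and some others were chosen after their values were seen. From each related list the 3 genes with the highest level and the 2 with the smallest p were named. Some genes that this rule takes are not reported here. The members, lists and choices were made with earlier results of these data known. The alternatives covered pseudocount, filter, scaling, prior variance, library weights, a replicate block and leaving out libraries.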

Additional observations from a re-analysis of the deposited data

How the results depend on the processing

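No member of the 17 and no related gene was called under any of the 17 alternatives, and KCNN4 was called in each. With both libraries that stand apart left out, an alternative added after seeing the data, 4 genes were called in place of 1. The replicate numbers did not pair the libraries (correlations of 0.306, -0.410 and -0.154 between same-numbered libraries), and with the replicate block 1 gene and 0 members were called. Of 279 member fold changes recomputed, 36 changed sign, none of them called. ADAM15 and MMP24OS kept their sign in all. Signs changed for MMP13 (-0.0053, -0.0070) and MMP14 (-0.0030, -0.0018) with median scaling and quantile normalization, for ADAM17 (-0.043), TIMP4 (0.029) and MMP14 (-0.034) with library weights, and for TIMP3 (-0.0017), ADAM17 (-0.036), TIMP4 (0.047) and MMP14 (-0.032) without both libraries. The cause was not tested. Leaving out 1 library at a time, the log2 fold change ranged from -0.050 to 0.28 for MMP7, -0.059 to 0.10 for ADAM17, -0.13 to 0.059 for MMP17, -0.055 to 0.12 for MMP13, -0.0018 to 0.23 for ADAM9, -0.21 to 0.022 for TIMP4, -0.021 to 0.035 for MMP14, -0.0041 to 0.094 for ADAMTS12, -0.0034 to 0.20 for MMP24, -0.032 to 0.034 for TIMP2, -0.12 to 0.067 for ADAM10, -0.052 to 0.038 for ADAM8, -0.024 to 0.040 for TIMP1 and -0.12 to 0.035 for ADAMTS10. With library weights MMP24OS, and with no filter ADAM21, reached a limma unadjusted p below 0.05 (lowest member adjusted p 0.562 and 0.973). ADAM21 was at 0.03, 0.03 and 0.06 FPKM in the controls and at 0.01, 0.01 and 0 FPKM with SK4. These values rest on about 2.10 fragments per library, a counting error of 69.0%. The share of all genes below that p in these settings is not given here, so neither result has a background. Depth limits the precision for the 33 members under a mean of 0.1 FPKM.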
